A study of Mus musculus with 47 samples.

Results

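The comparison described here is female against male gastrocnemius, a calf muscle made mostly of fast fibres, in NZO/HlLtJ mice. NZO/HlLtJ is an inbred, polygenic model of obesity and insulin resistance in which diabetes is known to be more frequent in males than in females. Members were chosen by strain and sex in the sample labels, which gave 16 of the 47 poly(A) RNA libraries of the series, 8 from females and 8 from males. In each sex 4 libraries came from mice on the control diet (10% fat + fiber) and 4 from mice on the diet high in fat and sugar (44% fat + fiber). All mice are labelled wild type with no other treatment. They entered their diet at 6 weeks of age and tissue was taken at 15 weeks. The other libraries are 16 from C57BL/6J (8 female, 8 male) and 15 from CAST/EiJ under the same diets. They serve the strain contrasts and share the fit, so the spread behind the p-values is estimated over all 47 libraries unless stated. Genes on X, Y and the mitochondrial genome were left out by rule, so 16592 autosomal genes were tested of 20077 autosomal genes in the deposited table. The labels do not say whether each library was made from a different mouse, so p-values measure only the spread between these samples.

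Skeletal muscle differs between the sexes through testicular androgens, ovarian oestrogens and the sex-dependent pulses of growth hormone, all of which reach muscle nuclei through receptors or kinase cascades. Androgens are known to induce the enzymes of polyamine synthesis, and female muscle is known to hold more slow, oxidative fibres than male muscle in many mammals. In bulk tissue, fewer cells of a type and less RNA per cell cannot be told apart, and this holds for every gene below.

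Library depth was 26.04 to 84.79 M expected counts in females and 31.03 to 40.79 M in males. Xist, the RNA that silences the second X, had at least 215.7 CPM (counts scaled to library size, after TMM normalisation) in every female library and at most 0.226 CPM in every male library. Of 9 Y-linked genes tested, 4 had all female values below all male values. Myofibre markers were high throughout, with a mean of 12.7 to 13.3 log2 CPM over 12 markers. Sample numbers in the titles form 3 runs of consecutive identifiers, which the labels do not call batches. Run 1 holds both sexes on both diets, while in runs 2 and 3 each sex was on one diet, so sex and diet cannot be told apart there. Beyond this, 3 libraries stand apart, and leaving them out is an alternative chosen after seeing the data. The female on 10% fat numbered replicate 4 had a mean of 4.29 log2 CPM over 12 lymphocyte markers, against -2.25 or less in all 15 others. The female on 10% fat numbered replicate 1 and the male on 10% fat numbered replicate 1 had the highest brown and white adipocyte scores (3.27 and 6.43 in the female, 2.01 and 6.67 in the male).

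The question of the comparison is which autosomal genes differ between the sexes in muscle of this strain. With diet and identifier run in the model, 1960 genes passed an adjusted p of 0.05 in edgeR's quasi-likelihood test, which is 11.8% of those tested. Of these, 849 were higher in females (5.12%) and 1111 lower (6.7%). Most differences were small: among called genes the median size was 0.34 in log2, and 241 reached a 2-fold difference, 122 higher and 119 lower. Fold changes are female over male, ± gives their standard error (SE), and n is 8 and 8 libraries unless stated. The female and male ranges did not overlap for 286 genes of all tested (1.72%), 283 of them called. Of the called genes, 1947 had the same sign on both diets. Within runs 1, 2 and 3 taken alone, 1959, 1915 and 1783 of them had the sign of the pooled effect, and 1737 (88.6%) had it in all 3. The genes were called on these same libraries, so the selection favours agreement of sign between diets or runs. It is no independent test. Without the 3 libraries that stand apart 1097 genes passed (465 higher, 632 lower), of which 1033 were among the 1960. In run 1 alone 570 passed (189 higher, 381 lower). With NZO/HlLtJ libraries only in the fit 1340 passed (568 higher, 772 lower), of which 1264 were among the 1960.

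Of 21 pathway lists, those with the largest shares of called members were slow fibre, unfolded protein and heat shock, and polyamine genes. The median log2 fold change over all 16592 genes was 0.0247, which is the level against which a list's median is read.

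**Figure D1:**
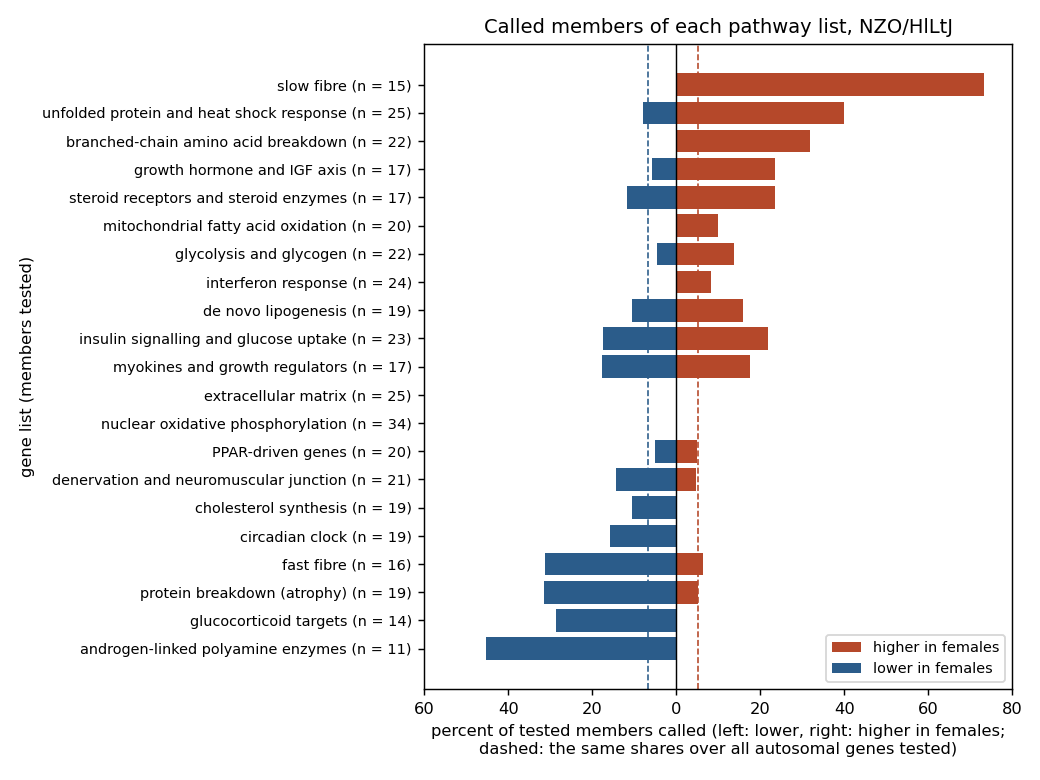
Share of tested members called higher (right) or lower (left) in NZO/HlLtJ females for 21 pathway lists, with the number tested in parentheses and dashed lines at the shares over all autosomal genes (5.12% and 6.7%). Slow fibre genes reach furthest to the right with 11 of 15 and polyamine genes furthest to the left with 5 of 11.

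Polyamines are small cations made from ornithine and decarboxylated S-adenosylmethionine. Of 11 listed genes, 5 (the enzymes Amd1, Amd2, Smox and Odc1 and the antizyme Oaz1) were lower in females, 0 were higher and 6 did not pass, with a median log2 fold change of -0.238. The promoters of the 3 lead genes are shown because these genes moved together. Each is the 250 bases before the RefSeq start site (build GRCm38.p6), 5′ to 3′ on the gene's strand, and capitals mark TATAA on either strand. Amd1 lies on the minus strand (chr10:40302189-40302438), Smox on the plus strand (chr2:131491612-131491861) and Odc1 on the plus strand (chr12:17544623-17544872). Of the 11 list members, 7 had a window in the RefSeq data.
Amd1: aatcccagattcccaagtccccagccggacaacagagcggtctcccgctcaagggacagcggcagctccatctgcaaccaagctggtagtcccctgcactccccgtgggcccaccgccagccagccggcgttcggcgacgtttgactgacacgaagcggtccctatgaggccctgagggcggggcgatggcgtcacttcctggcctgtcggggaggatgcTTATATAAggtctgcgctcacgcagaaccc
Smox: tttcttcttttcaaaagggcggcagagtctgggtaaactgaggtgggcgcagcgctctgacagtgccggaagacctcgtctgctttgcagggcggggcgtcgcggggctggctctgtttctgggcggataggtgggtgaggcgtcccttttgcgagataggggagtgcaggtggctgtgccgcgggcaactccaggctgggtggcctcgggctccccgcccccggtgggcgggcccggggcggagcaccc
Odc1: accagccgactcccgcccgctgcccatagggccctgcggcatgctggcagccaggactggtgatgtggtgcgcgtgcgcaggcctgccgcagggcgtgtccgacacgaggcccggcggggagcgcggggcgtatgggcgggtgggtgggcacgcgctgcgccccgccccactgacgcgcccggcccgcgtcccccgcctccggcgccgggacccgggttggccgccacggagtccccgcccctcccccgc

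The letters AGAACA (the half-site of androgen and glucocorticoid receptors, searched on both strands) occur in none of these 3 windows and in 16.1% of all 32851 promoter windows of that length. The palindrome of this half-site, with 3 free bases between its arms, occurs in none of the 3 and in 3 windows in all, and the E-box CACGTG in none of the 3 and in 6.02% of windows. The Amd1 window holds TATAA on both strands, at 2 overlapping positions, as do 22.8% of windows at 1 or more positions. GC content was 64.4% for Amd1, 68% for Smox and 80% for Odc1, against a median of 52.4% over all windows. A match is a description of letters, not a site.

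Amd1 (ENSMUSG00000075232, chromosome 10, 40287458 to 40302188), S-adenosylmethionine decarboxylase, had 143, 175 and 187 CPM in females (lowest, median and highest of 8) and 809, 1448 and 1804 CPM in males. No female library reached the lowest male library, which was replicate 3 on 44% fat. The log2 fold change was -3.07 ± 0.13 (adjusted p = 7.62e-20). Smox (chromosome 2, 131491496 to 131525922), spermine oxidase, which turns spermine back to spermidine, had 20.8, 22.9 and 32.6 CPM in females and 41.4, 105 and 135 CPM in males. The ranges again did not overlap, and the same male library was lowest (-2.03 ± 0.16, adjusted p = 8.29e-12). Odc1 (chromosome 12, 17544873 to 17551502), ornithine decarboxylase, the first enzyme of the pathway, had 55.9, 74.8 and 108 CPM in females and 172, 211 and 306 CPM in males. Every male was above every female (-1.63 ± 0.13, adjusted p = 2.11e-12). That male library was lowest of the males for Amd1, Smox, Odc1 and Amd2 alike, and still above all females for each.

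Amd2 (chromosome 10, 35708691 to 35711891), a near copy of Amd1, had 1.37 to 2.23 CPM in females and 3.29 to 7.32 CPM in males (-1.61 ± 0.16, adjusted p = 2.44e-09). Of the first 50 bases of the Amd1 transcript, a run of 48 also stands in the Amd2 window, so the division of reads between the copies is uncertain. In CAST/EiJ, Amd2 was given 109 CPM in females and 488 in males, and Amd1 118 and 555. Oaz1, the antizyme that marks ornithine decarboxylase for breakdown, differed little in size (-0.24 ± 0.05, adjusted p = 0.000753) with overlapping ranges. The differences of Amd1 on 10% and 44% fat were -3.09 and -3.05, those of Smox -1.92 and -2.13, and those of Odc1 -1.31 and -1.95. The polyamine calls were 5 lower and 0 higher also without the 3 libraries.

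**Figure D2:**
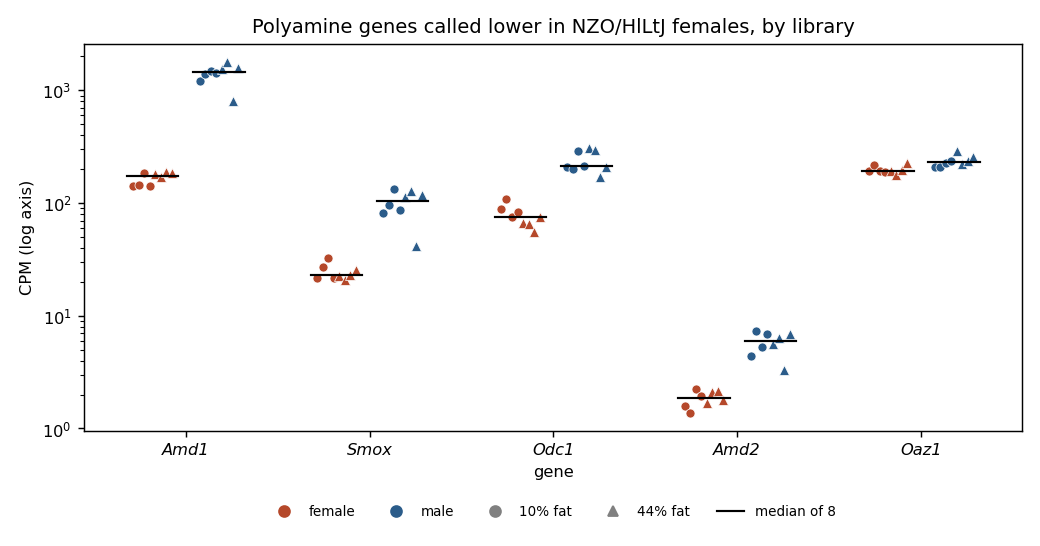
CPM on a log axis of the 5 called polyamine genes in each of 16 NZO/HlLtJ libraries, females left (red) and males right (blue), circles for 10% fat and triangles for 44% fat, with bars at the median of 8. For Amd1, Smox, Odc1 and Amd2 every male point lies above every female point, while the Oaz1 ranges overlap.

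Beside Amd1, the 12 largest falls in females included 3 solute transporters with non-overlapping ranges. Slc30a2 (chromosome 4, 134343181 to 134354484), a zinc exporter into vesicles, had 1.71, 2.28 and 6.12 CPM in females and 30.4, 35.2 and 47 CPM in males (-3.68 ± 0.17, adjusted p = 1.46e-19). Slc15a5 (chromosome 6, 137983586 to 138079916), of the peptide transporter family, had 1.75, 2.49 and 4 CPM in females and 22.2, 33.1 and 36 CPM in males (-3.48 ± 0.23, adjusted p = 3e-14). The glucose transporter Slc2a3, also known as GLUT3 (chromosome 6, 122727809 to 122801640), had 2.04, 2.73 and 5.52 CPM against 11.8, 15.5 and 18.3 CPM (-2.35 ± 0.18, adjusted p = 1.55e-12). For each of the 3 the lowest male exceeded the highest female by more than the range of the female libraries. The terminal complement component C7 had 1.01, 1.54 and 2.23 CPM in females and 6.98, 13.2 and 16.6 CPM in males (-2.96 ± 0.20, adjusted p = 8.22e-14).

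The uncharacterised gene 1700001O22Rik had the largest difference, at 0 to 0.299 CPM in females and 1.42 to 4.11 CPM in males (-4.31 ± 0.31, adjusted p = 1.99e-13). Cdk19 (chromosome 10, 40349308 to 40483818), a kinase of the Mediator complex, had 12.6, 17.4 and 20.7 CPM in females and 49, 70.1 and 96.3 CPM in males (-2.07 ± 0.11, adjusted p = 1.28e-17). It is the neighbour of Amd1 on the opposite strand, with 47.1 kb between the gene spans. On the other side of Amd1, Gtf3c6 and Rpf2 had log2 fold changes of 0.00 and 0.05 (adjusted p = 0.993 and 0.75). The potassium channel subunit Kcnf1 had 2.28 to 11.7 CPM in females and 13.1 to 49.9 CPM in males (-2.28 ± 0.31, adjusted p = 1.48e-06). For the calcium channel subunit Cacna2d4 the values were 0.706 to 2.34 and 3.59 to 9.62 CPM (-2.28 ± 0.20, adjusted p = 9.64e-11). Its span holds Lrtm2 on the opposite strand (-1.30, adjusted p = 0.000864), and since the use of strand in counting is not given, reads of these partners cannot be told apart.

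The protease gene Htra4 overlapped between the sexes through one female at 5.26 CPM, the others being at 1.53 CPM or less, against 3.52 to 10.7 CPM in males (-2.48 ± 0.35, adjusted p = 2.94e-06). Slc5a7, the choline transporter of motor nerve endings, overlapped widely, at 0.122 to 2.22 and 0.223 to 6.68 CPM (-2.13 ± 0.53, adjusted p = 0.00609). Its call ended without the 3 libraries (adjusted p = 0.0612), and that of Htra4 ended in run 1 alone (adjusted p = 0.0681).

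Among the 12 largest rises in females were a transcription factor, a sarcomeric actin and several secreted or surface proteins. Mycn (chromosome 12, 12936096 to 12941914), a factor of the Myc family, had 0.245, 1.9 and 2.9 CPM in females and 0.0742, 0.189 and 0.386 CPM in males (2.98 ± 0.38, adjusted p = 3.39e-07). One female, replicate 3 on 10% fat, lay within the male range and the other 7 above it. Actc1 (chromosome 2, 114047282 to 114053548), the actin of heart and developing muscle, had 30.3, 81.3 and 141 CPM in females and 4.96, 12.5 and 35 CPM in males (2.12 ± 0.30, adjusted p = 2.21e-06). Females on 10% fat held 118 to 141 CPM and females on 44% fat 30.3 to 45 CPM, and only the latter overlapped with males. Greb1 (chromosome 12, 16670615 to 16800886), a gene known for its induction by oestrogen, had 2.25, 3.09 and 4.35 CPM in females and 0.598, 0.931 and 1.21 CPM in males (1.79 ± 0.27, adjusted p = 7.91e-06). The lowest female stood above the highest male.

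Stc2, the secreted glycoprotein stanniocalcin, had 7.61, 9.31 and 19.9 CPM in females and 1.41, 3.62 and 5.06 CPM in males (1.77 ± 0.29, adjusted p = 3.4e-05), without overlap. The immune checkpoint ligand Vtcn1 had 1.5 to 3.44 and 0.326 to 0.853 CPM (1.82 ± 0.31, adjusted p = 7.13e-05), also without overlap. The atypical cadherin Fat3 had 4.22 to 9.39 CPM in females and 1.41 to 2.46 CPM in males (1.52 ± 0.18, adjusted p = 8.14e-08), and the matrix protein Coch 1.05 to 2.33 and 0.0672 to 1.08 CPM (1.76 ± 0.32, adjusted p = 0.000192). Of these, Fat3 had separate ranges and Coch touching ones. Lrfn4, a synaptic adhesion gene, had 3.12 to 14.4 and 1.73 to 5.22 CPM (1.59 ± 0.31, adjusted p = 0.000329). It lies inside the span of Pcx, pyruvate carboxylase, on the opposite strand, which was higher in females too (1.16 ± 0.15, adjusted p = 3.74e-07), so their reads cannot be told apart.

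Cyfip2, an actin regulator of the WAVE complex, had 2.32 to 37.3 CPM in females and 1.23 to 2.25 CPM in males (2.14 ± 0.31, adjusted p = 5.36e-06). The highest value, and that of Plac8 (5.24 CPM against 0.979 or less in the other females), came from the female library with high lymphocyte markers. The part of those cells in the result was not tested. Cyfip2 passed without the 3 libraries (1.55, adjusted p = 0.000693), while Plac8 did not (1.03, adjusted p = 0.431, against 1.82 ± 0.60 and 0.0428 with all libraries). Fndc9, on the opposite strand within Cyfip2, was also higher, at 0.376 CPM in females and 0.0238 CPM in males (4.66, adjusted p = 5.57e-05). Reads of Cyfip2 and Fndc9 cannot be told apart.

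**Figure D3:**
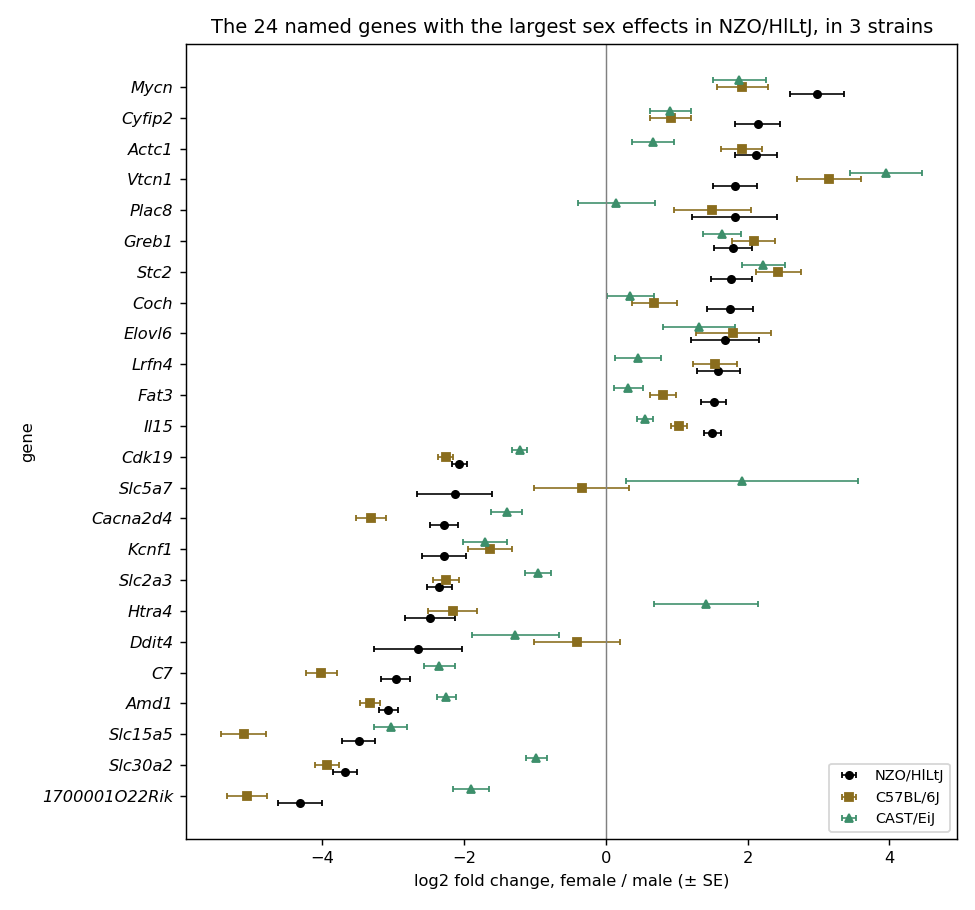
Female over male log2 fold changes (± SE) of the 24 genes named for the largest effects in NZO/HlLtJ (black circles), with those in C57BL/6J (squares) and CAST/EiJ (triangles). Slc30a2 lies at -3.68 in NZO/HlLtJ and at -0.98 in CAST/EiJ, and Il15 at 1.5, 1.03 and 0.55 in the 3 strains.

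Slow fibre genes formed the list with the largest share of called members (73.3%). These encode the sarcomere and calcium-handling proteins of type I fibres. Of 15 genes 11 were higher in females, 0 were lower and 4 did not pass, with a median of 0.649. Myh7 (chromosome 14, 54970688 to 54994634), the slow myosin heavy chain, had 1188, 1485 and 1956 CPM in females and 537, 751 and 1111 CPM in males. The lowest female lay just above the highest male, and the log2 fold change was 0.94 ± 0.18 (adjusted p = 0.000327). The slow regulatory light chain Myl2 had 222, 305 and 393 CPM against 125, 155 and 219 CPM (0.94 ± 0.15, adjusted p = 2.09e-05), and the troponins Tnnt1 and Tnni1 had 0.89 ± 0.16 and 0.88 ± 0.17 (adjusted p = 0.000142 and 0.000461). None of these ranges overlapped. Tnnc1 (0.84), Myl3 (0.74), the slow calcium pump Atp2a2 (0.66), Casq2 (0.65), Tpm3 (0.64), Myh7b (0.63) and Myoz2 (0.62) passed as well. Csrp3 (0.60, adjusted p = 0.205), Sln (0.36, adjusted p = 0.51), Ankrd2 (0.16, adjusted p = 0.718) and Pln (-0.46, adjusted p = 0.135) did not. The count was 10 without the 3 libraries and 11 in run 1 alone. On 10% fat alone 0 of the 15 passed (median 0.575), and on 44% fat alone 10 passed as higher (median 0.832). In C57BL/6J 12 passed as higher (median 0.779) and in CAST/EiJ 0 (median 0.201). Tested directly, the sex effect differed from that in NZO/HlLtJ for 0 of the 15 in C57BL/6J and for 1 in CAST/EiJ.

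Fast fibre genes moved less and in both directions. Of 16, 1 was higher, 5 were lower and 10 did not pass, with a median of -0.0777. Myh2 (chromosome 11, 67171027 to 67197517), the myosin of the oxidative fast type IIA fibre, had 1887, 3251 and 4038 CPM in females and 1566, 2159 and 2624 CPM in males (0.54 ± 0.16, adjusted p = 0.0161). Myh4, the myosin of type IIB fibres, was lower in females (-0.22 ± 0.07, adjusted p = 0.0383), as were the calcium buffer Pvalb (-0.26 ± 0.08, adjusted p = 0.0193), Tpm1 (-0.26 ± 0.07, adjusted p = 0.00809), Myoz1 (-0.25 ± 0.06, adjusted p = 0.00229) and Tnni2 (-0.20 ± 0.06, adjusted p = 0.0193). Myh1 of type IIX fibres had 0.30 ± 0.12 (adjusted p = 0.106). All 6 called genes overlapped between the sexes. Without the 3 libraries 0 of the fast fibre genes passed as lower and 2 as higher.

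**Figure D4:**
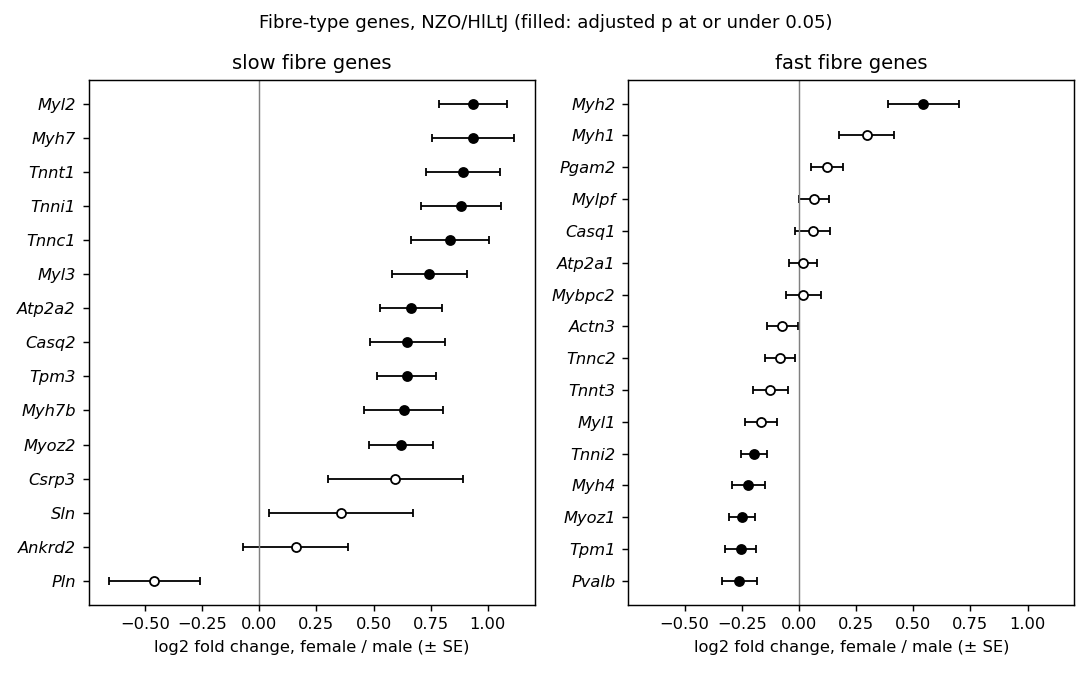
Log2 fold changes (female over male, ± SE, 8 and 8 libraries) of 15 slow fibre genes (left) and 16 fast fibre genes (right), filled where the adjusted p is at or under 0.05. Slow genes from Myoz2 at 0.62 to Myl2 at 0.94 are filled on the right of 0, and the filled fast genes lie near -0.2 except Myh2 at 0.54.

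In the growth hormone and IGF list, 4 of 17 genes were higher in females, 1 was lower and 12 did not pass (median -0.00144). Socs2, the feedback inhibitor of growth hormone signalling, had 15, 25.9 and 33.5 CPM in females and 6.32, 9.62 and 27.5 CPM in males. The males numbered replicates 2 and 3 on 10% fat lay inside the female range and the difference was 1.11 ± 0.27 (adjusted p = 0.004, or 0.0784 without the 3 libraries). The growth factor Igf2 (0.31 ± 0.09, adjusted p = 0.0149), the transducer Stat5a (0.32 ± 0.10, adjusted p = 0.0253) and the binding protein Igfbp6 (0.31 ± 0.10, adjusted p = 0.0324) were higher, and the kinase Jak2 was lower (-0.37 ± 0.07, adjusted p = 0.000118). Without the 3 libraries 2 of this list were higher and 1 lower, and in run 1 alone also 2 and 1. In these 2 settings the adjusted p by edgeR was 0.051 and 0.142 for Igf2, and 0.0356 and 0.279 for Stat5a. Of 17 steroid receptor and enzyme genes 4 were higher, 2 were lower and 11 did not pass (median 0.147). Akr1c14, a 3-alpha-hydroxysteroid dehydrogenase, had 6.79 to 12.5 CPM in females and 3.74 to 6.75 CPM in males (0.71 ± 0.18, adjusted p = 0.00619). The glucocorticoid receptor Nr3c1 was higher by 0.28 ± 0.07 (adjusted p = 0.0032) and Hsd17b7 lower by -0.41 ± 0.10 (adjusted p = 0.0041). Without the 3 libraries 1 of this list was higher and 0 lower.

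Genes known as glucocorticoid targets were lower in females where they passed: 4 of 14, with 0 higher and a median of -0.509, and 0 of the 14 coefficients positive. Ddit4 (chromosome 10, 59949675 to 59951770), an inhibitor of mTORC1, had 6.07, 6.94 and 29.6 CPM in females and 3.8, 41.9 and 134 CPM in males (-2.65 ± 0.62, adjusted p = 0.00305). The male values were spread over the whole female range and beyond. The kinase Sgk1 had 38, 80.5 and 97.4 CPM in females and 80.3, 164 and 258 CPM in males (-1.21 ± 0.23, adjusted p = 0.000292). The factor Cebpd (-1.71 ± 0.45, adjusted p = 0.00839) and the EGF receptor inhibitor Errfi1 (-0.78 ± 0.21, adjusted p = 0.00843) were also called.

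The differences were not alike across the identifier runs. Within run 1 Ddit4 differed by -2.72, within run 2 by -2.27 and within run 3 by 0.98, as differences of mean log2 CPM. For Cebpd these values were -2.25, -1.51 and 0.98, for Errfi1 -0.95, -0.92 and 0.13, and for Sgk1 -1.42, -1.45 and -0.42. In run 3 the 2 males were on 10% fat and the 2 females on 44% fat. Without the 3 libraries that stand apart 1 of the 14 genes passed, Sgk1 (-0.91, adjusted p = 0.0112), while Ddit4, Cebpd and Errfi1 had adjusted p of 0.0822, 0.214 and 0.253.

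Trim63, the muscle ubiquitin ligase MuRF1, had 139, 173 and 274 CPM in females and 119, 276 and 443 CPM in males (-0.57 ± 0.17, adjusted p = 0.0214), with run differences of -0.77, -0.90 and 0.43. Chac1, an enzyme of glutathione breakdown chosen after its values were seen, had 2.21 to 37.7 and 19 to 97.1 CPM (-1.68 ± 0.48, adjusted p = 0.0157). In the protein breakdown list 1 of 19 genes was higher, 6 were lower and 12 did not pass (median -0.12). Eif4ebp1, the translation repressor 4E-BP1, had 10.5 to 15.7 CPM in females and 15.9 to 25.7 CPM in males without overlap (-0.68 ± 0.08, adjusted p = 2.11e-08). Sqstm1, the autophagy receptor p62, was lower (-0.43 ± 0.06, adjusted p = 4.1e-06), as were Mstn, Map1lc3a and Bnip3 (-0.48, -0.28 and -0.28), and Fbxo31 was higher (0.30 ± 0.06). Gm20388 overlaps Fbxo31 on the opposite strand and was higher too (0.65, adjusted p = 0.0453 by edgeR), so their reads cannot be told apart. Leaving out those 3 libraries left 1 higher and 2 lower.

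**Figure D5:**
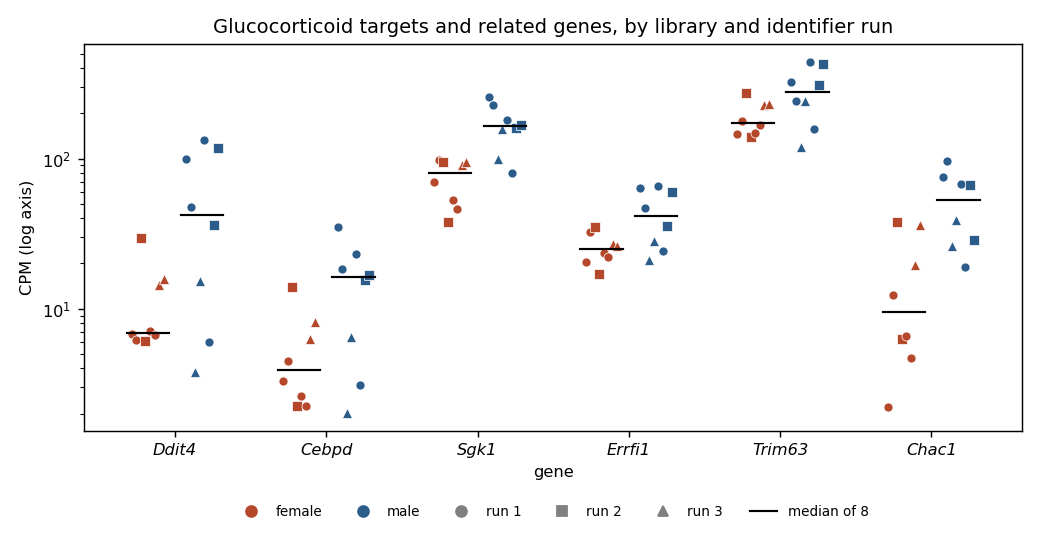
CPM on a log axis of 4 glucocorticoid targets, Trim63 and Chac1 in each of 16 NZO/HlLtJ libraries, females red and males blue, with circles, squares and triangles for identifier runs 1, 2 and 3 and bars at the median of 8. For Ddit4 the run 3 males are at 3.80 and 15.2 CPM, under the highest female, while 5 males lie above the highest female.

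Genes of insulin signalling and glucose uptake went both ways, with 5 of 23 higher, 4 lower and 14 not passing (median 0.0539). Tbc1d1 (chromosome 5, 64156305 to 64351486), the Rab regulator that holds back glucose transporter vesicles, had 83.8, 121 and 175 CPM in females and 40.3, 54.6 and 78.6 CPM in males. The ranges did not overlap (1.10 ± 0.15, adjusted p = 2.43e-06). The insulin receptor adaptor Grb10 had 58 to 83.7 and 38.2 to 53.7 CPM (0.62 ± 0.09, adjusted p = 3.29e-06), also without overlap. Pik3r1 (0.48), Grb14 (0.38) and Akt1 (0.21) were higher, and Slc2a3, Ptpn1 (-0.28) and Gsk3b (-0.25) were among the lower ones. The counts were 5 higher and 2 lower without the 3 libraries. In glycolysis and glycogen 3 of 22 were higher and 1 lower, namely Ldhb (0.47), the branching enzyme Gbe1 (0.41), Eno3 (0.21) and Phkb of phosphorylase kinase (-0.47 ± 0.06, adjusted p = 2.21e-06). Without the 3 libraries 4 of these 22 were higher and 1 lower, and in run 1 alone 0 and 1. The call of Eno3 (adjusted p = 0.0364 by edgeR) ended in 9 of 27 alternatives.

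De novo lipogenesis showed both directions within 1 pathway, with 3 of 19 higher, 2 lower and 14 not passing (median 0.156). Mlxipl, the carbohydrate-sensing factor ChREBP, had 75.6 to 101 CPM in females and 55.7 to 67.3 CPM in males (0.52 ± 0.07, adjusted p = 4.42e-06). The ranges did not overlap. Srebf1, the insulin-induced lipogenic factor, went the other way (-0.65 ± 0.12, adjusted p = 0.000223), as did malic enzyme Me1 (-0.41 ± 0.09, adjusted p = 0.00116). Elovl6, which elongates fatty acids, had 3.36, 9.34 and 51.3 CPM in females and 1, 4.11 and 11.5 CPM in males (1.68 ± 0.48, adjusted p = 0.0163), and Thrsp 8.17, 14.2 and 82.1 and 2.62, 6.91 and 24.2 CPM (1.33 ± 0.42, adjusted p = 0.0337). The highest value of both genes belonged to the female with the highest brown adipocyte score, and without the 3 libraries Elovl6 had 0.98 (adjusted p = 0.294) and 1 of the list was higher and 2 lower. In run 1 alone 1 was higher and 0 lower, with an adjusted p by edgeR of 0.219 for Srebf1 and 0.0767 for Me1. Of 11 white adipocyte markers 0 passed by edgeR (1 at an unadjusted p under 0.05), and their summed level was 849 to 1826 CPM in females and 780 to 2227 CPM in males. Of 10 brown adipocyte markers 1 passed, Dio2 (0.77 ± 0.24, adjusted p = 0.0295), with summed levels of 165 to 301 and 168 to 213 CPM. The defining marker Ucp1 had 79 CPM in that female, 20.8 CPM in the male of the 3 libraries and 4.03 CPM or less in the others, with 0 in 1. The part of fat cells in these results was not tested.

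Oxidative genes differed little. Of 20 genes of mitochondrial fatty acid oxidation 2 were higher (Echs1, 0.23 ± 0.05, and Cpt2, 0.20 ± 0.06) and 0 lower, and of 34 nuclear genes of oxidative phosphorylation 0 passed by edgeR (median 0.0446), with 3 at an unadjusted p under 0.05. Of 20 PPAR-driven genes 1 was higher and 1 lower, the latter the lipoprotein receptor Vldlr, at 210 to 291 CPM in females and 316 to 468 CPM in males (-0.67 ± 0.08, adjusted p = 2.94e-07). Over both diets the share called in these 3 lists was at or under the 11.8% of all genes. On 44% fat alone 2 of the 20 PPAR-driven genes were higher and 4 lower (median -0.424), against 2.36% and 3.21% of all genes. On 10% fat 0 were higher and 1 lower (median 0.114). Medians of the fatty acid oxidation list were -0.0259, -0.274 and 0.307 within runs 1, 2 and 3. Branched-chain amino acid breakdown had 7 of 22 genes higher and 0 lower (median 0.112). Dbt, the transacylase core of the branched-chain dehydrogenase, had 32.4 to 40.2 CPM in females and 15.4 to 30.4 CPM in males (0.61 ± 0.08, adjusted p = 2.05e-06) without overlap. Bckdhb (0.30), Mccc2 (0.27), Echs1, Ivd (0.21), Mcee (0.19) and Mut (0.17) were the others. The count was 7 without the 3 libraries and 1 in run 1 alone. Cholesterol synthesis had 2 of 19 lower, Hsd17b7 among them.

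The unfolded protein and heat shock list had 10 of 25 genes higher, 2 lower and 13 not passing (median 0.216). Xbp1, the factor spliced upon stress in the endoplasmic reticulum, had 72.4, 76.2 and 86.3 CPM in females and 44.9, 49.1 and 53.3 CPM in males. Every female lay above every male (0.67 ± 0.06, adjusted p = 3.7e-10). The chaperones and disulphide isomerases Canx (0.27), Hspa5 (0.22), Pdia3 (0.22), Pdia4 (0.34), Pdia6 (0.19), Hsp90b1 (0.17) and Calr (0.15) were higher by less. Of the small heat shock proteins Cryab (0.65 ± 0.12, adjusted p = 0.000163) and Hspb6 (0.38 ± 0.10, adjusted p = 0.0085) were higher and Hspb8 was lower (-0.35 ± 0.07, adjusted p = 0.00054). Herpud1 was lower by -0.16. Leaving out the 3 libraries left 4 higher and 1 lower, and run 1 alone 3 and 0.

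Among 17 measured myokines and growth regulators 3 were higher, 3 lower and 11 did not pass (median 0.0253). Il15 (chromosome 8, 82331637 to 82403222), a cytokine made by muscle fibres, had 5.5, 6.71 and 7.26 CPM in females and 1.75, 2.24 and 3.14 CPM in males. The sexes were separate by more than the range of either (1.5 ± 0.12, adjusted p = 1.94e-12). Ostn, which encodes musclin, had 0.65 ± 0.16 (adjusted p = 0.00445) and the neurotrophin Bdnf 1.01 ± 0.33 (adjusted p = 0.0357). Myostatin, Mstn, the inhibitor of muscle growth, had 42.9, 49.7 and 77.8 CPM in females and 62.7, 71.6 and 87 CPM in males (-0.48 ± 0.11, adjusted p = 0.00279), with 1 female above the male mean. Its relative Gdf11 (-0.58 ± 0.13, adjusted p = 0.00194) and their type I receptor Acvr1b (-0.50 ± 0.12, adjusted p = 0.00434) were lower too. Without the 3 libraries Mstn had -0.41 (adjusted p = 0.0577), and 1 of this list passed as lower.

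Neuromuscular junction genes had 3 of 21 lower and 1 higher (median -0.186). Musk, the receptor kinase that assembles the junction, had 11.6, 18.6 and 27.9 CPM in females and 22.7, 39.7 and 47.2 CPM in males (-0.98 ± 0.17, adjusted p = 5.91e-05), with some overlap. Its adaptor Dok7 (-0.39 ± 0.11, adjusted p = 0.0132) and the esterase anchor Colq (-0.28 ± 0.09, adjusted p = 0.0261) were lower, and the myogenic factor Myog was higher (0.93 ± 0.31, adjusted p = 0.0432, or 0.138 without the 3 libraries). The call of Myog ended without any 1 of 10 of the 16 libraries, and that of Colq without any 1 of 7. Of 19 clock genes 3 were lower, Ciart (-1.07 ± 0.26), Hlf (-0.64 ± 0.15) and Bhlhe41 (-0.63 ± 0.13). In the interferon list 2 of 24 were higher (Irf9, 0.41, and Oas2, 0.52), and 0 without the 3 libraries. Of 25 extracellular matrix genes 0 passed by edgeR, with 4 at an unadjusted p under 0.05, and 4 were higher in run 1 alone.

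Markers of other cells moved to differing degrees, and their counts stand beside the 5.12% higher and 6.7% lower of all genes. Of 12 endothelial markers 5 were lower in females (Esam, Flt1, Ptprb, Emcn and Tie1, from -0.26 to -0.20), with summed levels of 480 to 537 CPM in females and 528 to 574 CPM in males, and 0 passed without the 3 libraries. Of 12 smooth muscle and pericyte markers 3 were lower, of 10 satellite cell markers 2 were lower, and of 12 fibro-adipogenic progenitor markers 2 were higher. Without the 3 libraries these counts were 0, 1 and 1, and in run 1 alone 0, 0 and 2. The mean over the satellite cell markers did not overlap, at 2.95 to 3.18 log2 CPM in females and 3.20 to 3.40 in males. Of these 10 markers 7 had an unadjusted p under 0.05 by edgeR. Macrophage markers had 3 of 12 higher (C1qa, 0.48, C1qc, 0.46, and Mrc1, 0.39), with summed levels of 129 to 283 and 87.5 to 197 CPM, and 1 passed without the 3 libraries and 0 in run 1 alone. Of 12 lymphocyte markers 0 passed by edgeR (2 at an unadjusted p under 0.05), while 1 passed as lower without the 3 libraries and 1 in run 1 alone. Their median log2 fold change was 3.13, with 5.93 on 10% fat and 0.509 on 44% fat. Their summed level was 435 CPM in 1 female library, 13.7 to 26.8 CPM in the other 7 females and 38.9 to 60.4 CPM in males. Most of this was the immunoglobulin chain Ighm, with a median of 18.8 CPM in females and 51.3 CPM in males (adjusted p = 0.639 with all libraries). These shifts stand beside all lists above, and their part in them was not tested.

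On 10% fat alone, 4 against 4 libraries, 515 genes passed (3.1% of those tested, 172 or 1.04% higher and 343 or 2.07% lower), and on 44% fat 924 (5.57%, 391 or 2.36% higher and 533 or 3.21% lower). Of these, 482 and 793 were among the genes called over both diets. The difference of the sex effect between diets passed for 0 genes by edgeR and 0 by limma-voom, 22 by DESeq2, with 1077 at an unadjusted p under 0.05 and a smallest adjusted p of 0.228. Acot2, an acyl-CoA thioesterase of mitochondria, was among those at that value, with 0.39 on 10% fat and -1.30 on 44% fat. Actc1 had 2.67 and 1.57 (adjusted p of the difference 0.821), and Eif4ebp1 -0.35 and -1.01 (0.329). A p that misses the threshold does not show that the sexes differ alike on both diets. Without male 44% fat replicate 1 the count on 44% fat was 387, without female 44% fat replicate 1 it was 522, without male 44% fat replicate 4 it was 573 and without female 44% fat replicate 2 it was 602. On 10% fat it was 320 without female replicate 4 and 339 without male replicate 2.

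The same contrast in the other strains called 2509 genes in C57BL/6J (15.1%, with 6.36% higher and 8.76% lower in females) and 700 in CAST/EiJ (4.22%, with 2.2% and 2.02%). Of the 1960 genes of NZO/HlLtJ, 1064 were called with the same sign in C57BL/6J, which is 54.3% of the NZO/HlLtJ genes and 42.4% of the C57BL/6J genes. For CAST/EiJ the number was 233, or 11.9% and 33.3%, and 186 genes were called with 1 sign in all 3 strains. The sign agreed for 93.4% of the 1960 in C57BL/6J and for 76.3% in CAST/EiJ. Tested directly, the sex effect differed between NZO/HlLtJ and C57BL/6J for 79 genes (0.476%, with 0.247% higher and 0.229% lower in NZO/HlLtJ) and between NZO/HlLtJ and CAST/EiJ for 408 (2.46%, with 0.808% higher and 1.65% lower in NZO/HlLtJ). In run 1 alone these counts were 1 and 12, and DESeq2 called 201 for the first.

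Several of the NZO/HlLtJ differences were smaller in CAST/EiJ. The effect on Slc30a2 was -3.68 in NZO/HlLtJ and -0.98 in CAST/EiJ (difference -2.70 ± 0.22, adjusted p = 2.16e-10), since CAST/EiJ females held 16.1 CPM and males 32. Cdk19 had -2.07 and -1.21 (difference -0.85 ± 0.15, adjusted p = 0.000588), Slc2a3 -2.35 and -0.96 (adjusted p = 0.000992), and Il15 1.5 and 0.55 (difference 0.95 ± 0.16, adjusted p = 0.000447). For slow myosin Myh7 the effect was 0.94 in NZO/HlLtJ, 1.14 in C57BL/6J and 0.24 in CAST/EiJ, and neither difference passed (adjusted p = 0.886 and 0.167). Tbc1d1 had 1.10 in NZO/HlLtJ and 0.12 in C57BL/6J (difference 0.98 ± 0.22, adjusted p = 0.0211), and 0.78 in CAST/EiJ.

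The genes whose sex effect was lower in NZO/HlLtJ than in C57BL/6J by the most were 4 epithelial genes and Prlr. The keratin Krt8 had 0.112 CPM in NZO/HlLtJ females and 0.356 in males, 3.08 and 0.146 in C57BL/6J, and 4.25 and 0.0279 in CAST/EiJ (differences -5.75 ± 1.12, adjusted p = 0.00603, and -8.56 ± 1.31, adjusted p = 8.12e-05). Krt18, Krt19, the desmosome gene Dsp and the prolactin receptor Prlr showed the same order, with C57BL/6J and CAST/EiJ females above their males. Of 11 listed mammary epithelium markers 5 were measured. Of these, 5 were higher in C57BL/6J females, 4 in CAST/EiJ females and 0 in NZO/HlLtJ females, where 1 was lower. In NZO/HlLtJ their summed level was low in both sexes, at 0.114 to 0.847 CPM in females and 0.246 to 4.27 CPM in males. The highest value came from male replicate 4 on 44% fat. Krt18 was lower in NZO/HlLtJ females (-1.92, adjusted p = 0.0479), a call that ended in 16 of 27 alternatives, among them those without any 1 of 10 libraries. In the other direction, the actin nucleator Actr3b fell less in NZO/HlLtJ females (-1.96) than in C57BL/6J females (-3.72), a difference of 1.76 ± 0.18 (adjusted p = 3.52e-08).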

How the data were processed

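Gastrocnemius poly(A) RNA was sequenced from 100 ng input per library, per the labels' protocols. The authors deposited expected counts per gene, of which 81.19% were whole numbers. The submitters' processing notes name GRCm38 and DESeq2, while the aligner, the annotation release and strandedness of counting were not given in the sources used here. Expected counts were rounded and all 47 libraries were fitted with edgeR 4.0.16 (R 4.3.3) as 12 strain, sex and diet groups plus the identifier run, after filterByExpr and TMM scaling, with quasi-likelihood tests and 33 residual degrees of freedom. Benjamini-Hochberg adjustment ran over 17159 genes, and the 16592 autosomal ones by the deposited gene table (GRCm38) are reported. The SE is the coefficient over the square root of its F statistic. Group CPM is the mean of the group means, and log2 CPM uses a prior count of 2.

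The genes named were the 12 called protein-coding genes with the largest fold change in each direction (at least 1 CPM in the higher sex, the same sign on both diets), the 4 lowest p-values of each list, and up to 5 genes per direction for each strain difference. Some results these rules would name are not reported here. Other genes named are members of the lists or were chosen after their values were seen. Biotypes came from GENCODE M21, which matched 16536 genes and left 56 unmatched. Members and lists were chosen with earlier results of these data known. Replicates differed by more than counting noise, with chi-squared per degree of freedom of 10.82 to 115.4 over 24 pairs. Alternatives used DESeq2 1.42.0, limma 3.58.1 (voom), other scaling and filters, and libraries left out. The fit was also run on counts simulated from its own fitted means and dispersions with known changes added. Such counts cannot show how it handles libraries that stand apart.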

Additional observations from a re-analysis of the deposited data

Results flagged for a closer look

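Of 152 sets of 4 libraries, 12 held 1 library with a gap to the others above Dixon's critical value, and chance marks about 1 in 20 such sets. Among females on 10% fat, replicate 3 had a low Mycn (-1.77 log2 CPM) and high Stc2 (4.32), Amd1 (7.53) and Ddit4 (4.89). In the same group, replicate 4 had high means over lymphocyte (4.29) and neutrophil (-0.769) markers. Among females on 44% fat, Slc2a3 was high in replicate 3 (1.58) and satellite cell markers were low in replicate 4 (2.95). Among males on 10% fat, Vtcn1 was low in replicate 3 (-1.42), neutrophil markers were high in replicate 1 (-2.81) and Schwann and nerve markers were high in replicate 2 (2.87). Slc15a5 was high in male replicate 2 on 44% fat (5.17).

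The sex effect differed from that in C57BL/6J for 79 genes by the test of the difference, given here as NZO/HlLtJ minus C57BL/6J in log2. It was higher for Irx3os (4.54), Actr3b (1.76), Amd2 (1.43) and Sorcs1 (1.25). It was lower for Krt8 (-5.75), Dsp (-5.68), Krt18 (-5.00), Prlr (-3.26) and Krt19 (-2.76). Irx3os lies opposite Irx3, so reads of these partners cannot be told apart.

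Against CAST/EiJ 408 genes differed. Of the genes with the largest sex effects in NZO/HlLtJ, the difference was 1.45 for Actc1, 1.2 for Fat3, 0.951 for Il15, -2.41 for 1700001O22Rik, -2.70 for Slc30a2, -0.823 for Amd1, -3.89 for Htra4, -1.39 for Slc2a3 and -0.854 for Cdk19. The highest values belonged to the pseudogene Rpl36a-ps2 (7.57, adjusted p = 0.0452), B230312C02Rik (2.41), Casr (1.78), Irx3os (1.72) and Adamts4 (1.72). The call of Rpl36a-ps2 ended in 15 of 26 alternatives, among them those without any 1 of 10 of the 16 libraries. The lowest belonged to the water channel Aqp5 (-8.57), Krt8 (-8.56), Krt18 (-8.07), Pigr (-6.27) and Muc15 (-5.87).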

How the results depend on the processing

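No paired analysis was made, since the labels pair no female library with a male one. The labels give no replicate numbers, and those used here follow accession order. The count of genes differing by sex was 1573 to 2154 when 1 NZO/HlLtJ library was left out. It was 570 in identifier run 1 alone (189 higher, 381 lower, or 33.2% higher against 43.3%). With NZO/HlLtJ libraries only it was 1340, and without the 3 libraries that stand apart 1097. On 10% fat it was 825 with DESeq2, 111 with NZO/HlLtJ libraries only, 106 in run 1 alone, 131 without the 3 libraries and 320 to 578 with 1 library left out. On 44% fat it was 330 with NZO/HlLtJ libraries only, 271 in run 1 alone and 387 to 1258 with 1 library left out. The sex by diet count, 0 as reported, was 22 with DESeq2, 1 without the 3 libraries and 0 to 7 with 1 library left out, the 7 being without male 44% fat replicate 3. The difference from C57BL/6J was called for 201 genes with DESeq2 and 1 in run 1 alone, and that from CAST/EiJ for 12 in run 1 alone. Run 1 holds fewer samples, and the cause of the other shifts was not tested. No result changed sign past its threshold. Of 83 named genes that passed, 43 kept call and sign in all 27 alternatives and 40 lost the call in at least 1. Genes near 1 CPM or lower rest on few counts in the shallowest library (26.04 M counts).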

Other observations

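The gene lists of these paragraphs were chosen after their values were seen and support nothing beyond their own members. Mast cell genes had 4 of 11 higher in females and 0 lower. Cpa3, the mast cell carboxypeptidase, had 3.54, 4.04 and 5.24 CPM in females and 0.965, 2.14 and 3.35 CPM in males, without overlap (1.01 ± 0.19, adjusted p = 0.00018 by edgeR). Cma1 (0.90), Mcpt4 (0.78) and Tpsb2 (0.78) were the others, and 4 passed also without the 3 libraries that stand apart. Of 10 genes of resident macrophages 6 were higher, among them Cd209f (1.09), Cd209g (1.39) and Siglec1 (1.33), with 0 in identifier run 1 alone and 3 without the 3 libraries.

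Around the methionine cycle, which feeds the polyamine pathway, 1 of 12 genes was higher and 3 were lower. Adi1, of methionine salvage, had 48.9 to 57.1 CPM in females and 69.1 to 99.3 CPM in males (-0.61 ± 0.06, adjusted p = 1.24e-09), and Mtr had 21.2 to 24.4 and 27.5 to 35.8 CPM (-0.39 ± 0.06, adjusted p = 9.61e-06). Neither overlapped. Mat2a, which makes S-adenosylmethionine, was lower by less (-0.33), and Got1 was higher (0.40). Of 14 chromosome segregation genes 3 were lower, Tpx2 (-1.57 ± 0.16, adjusted p = 4.49e-09), Fam83d (-1.75 ± 0.27, adjusted p = 1.48e-05) and Aurka (-0.39), with a median of 0.705 over the list.

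Mybph, a myosin binding protein, had 285, 373 and 401 CPM in females and 104, 129 and 154 CPM in males (1.47 ± 0.17, adjusted p = 3.83e-08). Nmrk2, a nicotinamide riboside kinase of muscle, had 13.8, 27.7 and 42.7 CPM in females and 45.6, 90.4 and 135 CPM in males (-1.73 ± 0.23, adjusted p = 1.13e-06). For both genes the sexes did not overlap.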
